A study of Mus musculus with 51 samples.

Results

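CD8+ T cells carrying both CD103 and CD69 were compared with CD8+ T cells carrying neither protein, in AT3-OVA mouse mammary tumors taken on day 40 under immune checkpoint blockade. The comparison rests on 5 of the 51 libraries of the study, namely 3 of CD103+CD69+ cells, called DP here, and 2 of CD103-CD69- cells, called DN. The libraries were chosen by their titles, and their columns by the library code in each description. A further 3 libraries of CD103-CD69+ cells, called SP, came from tumors under the same treatment and shared in the estimate of spread. AT3-OVA is a mouse mammary cancer line made to express ovalbumin, which serves as a marker antigen, and checkpoint blockade releases T cells from inhibitory receptors. All 8 treated libraries share the line, the day, the treatment and the sort for CD8. The labels name no blocking agent, dose, host strain or mouse age, and do not say what day 40 is counted from. They also do not say whether a replicate is a mouse or a pool, so the p-values below measure only the spread between these libraries, which may be technical. RNA was profiled by QuantSeq, which reads 1 site near the 3′ end of each transcript, and the table held normalized values of 13458 genes on a log scale, read as log2. Counts were not analysed here, so the read depth behind each value is unknown.

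Resident memory T cells stay in a tissue instead of returning to the blood. CD103, the integrin subunit encoded by Itgae, binds E-cadherin on epithelial cells, and CD69 draws the receptor S1PR1 off the cell surface, so that the cell no longer follows sphingosine 1-phosphate out of the tissue. Such cells commonly shut down S1pr1 and Ccr7, which the transcription factor KLF2 and its relatives keep on in circulating cells, and many hold granzymes ready for killing.

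The sort was checked first on its own genes. Itgae, on chromosome 11 from 73090583 to 73147446 (plus strand, GRCm38), read 14.50, 14.48 and 14.50 in the 3 DP libraries and 9.96 and 10.10 in the 2 DN libraries. All DP libraries lay far above both DN libraries. The mean difference was 4.46 on the log2 scale, a 22.1-fold difference (SE 0.24, limma, adjusted p = 0.00477). Cd69, on chromosome 6 from 129267325 to 129275436 (minus strand), read 12.16, 12.19 and 12.28 in DP against 11.96 and 11.92 in DN. Its groups did not overlap, but the difference was 0.27 (SE 0.08) and did not pass the test (adjusted p = 0.112), although the cells had been sorted on the protein. The CD8 T-cell genes, named after their values were seen, were present in every library: Cd8a lay between 14.86 and 15.38 and Cd3e between 14.26 and 14.55 in the 5 libraries. Cd4, the marker of the other main T-cell lineage, lay between 3.87 and 5.90.

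DP cells differed from DN cells at 1008 of 13458 genes, which is 7.49% of those tested (limma with Benjamini-Hochberg adjustment over all genes, adjusted p below 0.05). Of these, 601 were higher in DP (4.47%) and 407 were lower (3.02%), and 3663 genes had an unadjusted p below 0.05. The difference exceeded 1 log2 unit for 268 of the higher genes and was below -1 for 230 of the lower ones. All 1008 genes kept the 2 groups apart, but so did a large share of the table: the DP libraries all lay above the DN libraries at 37.5% of all genes and all below at 35.6%. The median difference over all genes was 0.00516, and the median SD within a group was 0.086 in DP, 0.0423 in DN and 0.135 in SP. Those SDs are of deposited values whose residuals from the group means had rank 2 of a possible 5. How far processing before deposit narrowed the spread within groups, here and for single genes below, was not tested. The fit enlarged the variances to allow for that rank. It enlarged them less in fits without 1 library, where the rank was 2 of a possible 4. The number of calls rested on how limma modelled the spread: without its trend of variance on level and without robust estimation it was 14. Without the trend but with robust estimation it was 0, with 3156 genes then at an unadjusted p below 0.05. It was 287 without DN replicate 1 and 303 without DN replicate 2, when the remaining DN library is assumed to vary like the other groups, and 1886, 2137, 2648 and 2011 without DP replicate 3 or SP replicates 1, 2 and 3. Of the 179 genes followed through these settings 144 were called, and 73 of them remained called whichever of the 8 libraries was left out.

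**Figure D1:**
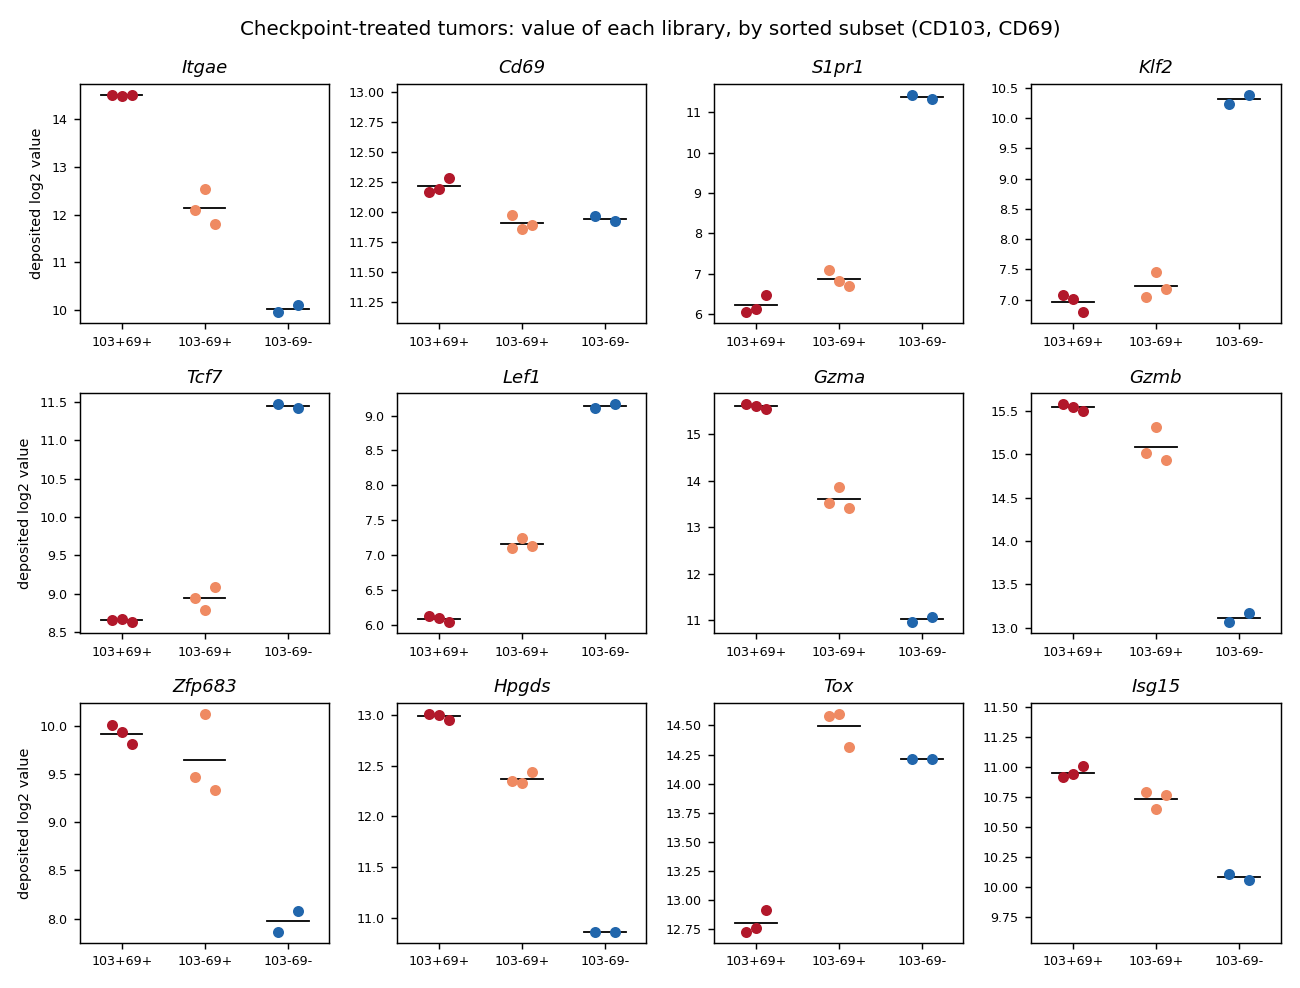
Deposited log2 value of 12 genes in each treated library (vertical axes, drawn to a range of their own for each gene) by sorted subset: 3 CD103+CD69+, 3 CD103-CD69+ and 2 CD103-CD69- libraries, with bars at the group means. The 3 CD103+CD69+ libraries of Itgae sit between 14.48 and 14.50, above both CD103-CD69- libraries, while those of S1pr1, Klf2, Tcf7 and Lef1 sit below them.

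Genes that let T cells leave tissue and enter lymph nodes were low in DP. Of the 14 measured members of this list, 10 were lower and 0 higher in DP, against 3.02% and 4.47% of all genes, and the median difference of the list was -2.78. S1pr1, the exit receptor, lies on chromosome 3 from 115710433 to 115715072 (minus strand) and read 6.04, 6.14 and 6.46 in DP against 11.44 and 11.34 in DN. Every DP library was about 5 units below the DN libraries. The difference was -5.18 (SE 0.22, limma, adjusted p = 0.00306), which is 36.2-fold. The transcription factors Klf3 and Klf2, regulators of T-cell trafficking, differed by -4.55 and -3.35 (adjusted p = 0.00963 and 0.00423), and Klf2 read 7.083, 7.005 and 6.789 in DP against 10.24 and 10.39 in DN. Ccr7, the chemokine receptor for lymph-node homing, differed by -3.86 (adjusted p = 0.0161). S1pr5, a second sphingosine 1-phosphate receptor, differed by -6.99 at very low values, from -6.24 to -3.98 in DP against 1.96 and 1.39 in DN, and lost its call without either DN library (adjusted p up to 0.0917). In a bulk library, fewer cells that express such a gene and less RNA per cell cannot be told apart. Klf2 and Ccr7 were named after their values were seen, as were the further genes marked so below.

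Regulators of naive and stem-like T cells were lower where they passed, with 1 exception. The list had 11 lower and 1 higher member of 17, against 3.02% and 4.47% of all genes, with a median difference of -2.51. Tcf7 encodes TCF1, the factor that keeps T cells able to renew themselves, and lies on chromosome 11 from 52252371 to 52283014 (minus strand). It read 8.66, 8.67 and 8.63 in DP against 11.47 and 11.42 in DN (difference -2.79, SE 0.13, limma, adjusted p = 0.00306; named after its values were seen). The DP values lay close together and well below both DN values. Its partner Lef1 read 6.14, 6.11 and 6.05 in DP and 9.11 and 9.16 in DN, a difference of -3.04 (SE 0.17, adjusted p = 0.00382). Il6ra, a subunit of the interleukin 6 receptor, differed by -3.67 and Cmah, an enzyme of sialic acid synthesis, by -3.64 (adjusted p = 0.0147 and 0.00382). Bach2, a repressor of effector differentiation, and Slamf6, a surface marker of stem-like cells in exhausted populations, differed by -2.61 and -2.52 (adjusted p = 0.0102 and 0.00585), both named after their values were seen. Dapl1 had the most negative difference of all called genes, -7.32, with DP values from -4.44 to -1.91 and DN values of 3.90 and 4.82, and lost its call without either DN library (adjusted p up to 0.0945). Il7r, the interleukin 7 receptor subunit that sustains memory cells, was the exception: it read 16.75, 16.76 and 16.77 in DP and 16.39 and 16.36 in DN, a difference of 0.38 (adjusted p = 0.0477). That small difference lost its call without either DN library and without DP replicates 1 or 2 (adjusted p up to 0.125). Quantile normalization and the median shift ended the call too.

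Genes of tissue residency were higher in DP where they passed. Of 28 measured members 14 were higher and 0 lower, against 4.47% and 3.02% of all genes, with a median difference of 0.998, and 27 of the 28 differences were positive. Hpgds encodes a prostaglandin D2 synthase and lies on chromosome 6 from 65117293 to 65144908 (minus strand). It read 13.01, 12.998 and 12.95 in DP against 10.87 and 10.86 in DN (difference 2.12, SE 0.07, limma, adjusted p = 0.00275). In the deposited values the gap between the groups was many times the spread within them. Zfp683 encodes HOBIT, a transcription factor that, with BLIMP1, holds mouse resident cells in tissue. It read 10.01, 9.94 and 9.81 in DP against 7.86 and 8.08 in DN, a difference of 1.95 (SE 0.28, adjusted p = 0.0276), which lost its call without either DN library (adjusted p up to 0.0796). Qpct, a glutaminyl cyclase, and Itga1, the collagen-binding integrin subunit CD49a that marks many resident cells, differed by 1.71 and 1.64 (adjusted p = 0.00306 and 0.00653). Runx3, a factor that promotes CD103, and Prdm1, which encodes BLIMP1, did not pass, with differences of 0.10 and 0.37 (adjusted p = 0.481 and 0.0917; named after their values were seen). Prdm1, however, passed without SP replicates 2 or 3. Variances were enlarged less in fits without a library, so calls gained that way, here and below, are from a less strict test.

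The effector-memory and circulating-effector list showed no such shared direction. It had 4 higher and 4 lower of 15 measured members, against 4.47% and 3.02% of all genes. Its median difference was 0.09, which turned to -0.0045 under quantile normalization and -0.016 without DN replicate 1. The higher members were Fgl2, a secreted fibrinogen-like protein (1.67), the transcription factors Zeb2 (1.30) and Id2 (1.005), both tied to effector differentiation, and the protease gene Ctsw (0.35). The lower members were S1pr5, described above, the granzyme Gzmm (-3.23), Samd3 (-0.98) and the surface protein gene Ly6c2 (-0.51). The 4 lower members lost their calls without either DN library and Gzmm also without DP replicate 2, while Ctsw lost its call without either DN library or DP replicates 1 or 2 (adjusted p up to 0.126). Eomes and Tbx21, the T-box factors of cytotoxic T cells, differed by -2.14 and 0.27 and did not pass (adjusted p = 0.0575 and 0.212; named after their values were seen). Eomes passed without DP replicates 1 or 3 or any SP replicate.

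Granzyme genes split by member. Gzma, a granule protease released during killing, lies on chromosome 13 from 113093825 to 113100981 (minus strand) and read 15.65, 15.61 and 15.55 in DP against 10.96 and 11.09 in DN. The DP libraries exceeded the DN libraries by more than 4 units throughout, with a difference of 4.58 (23.9-fold, SE 0.16, limma, adjusted p = 0.00275). Gzmb, the granzyme that triggers caspases in the target cell, lies on chromosome 14 from 56258838 to 56262260 (minus strand). It read 15.57, 15.54 and 15.50 in DP and 13.06 and 13.16 in DN, a difference of 2.43 (SE 0.14, adjusted p = 0.00382). Gzmc differed by 4.03 at very low values, from -1.31 to -0.80 in DP and -5.26 and -4.85 in DN (adjusted p = 0.0435). Gzmm, a granzyme typical of innate-like lymphocytes, was lower, from 1.60 to 2.82 in DP against 5.47 and 5.18 in DN (adjusted p = 0.0412). The calls of Gzmc and Gzmm were lost without either DN library or DP replicate 2 (adjusted p up to 0.119). Gzmk, the granzyme of less differentiated effectors, was named after its values were seen: it ran from 13.53 to 14.02 in DP and read 13.61 and 13.84 in DN, so the groups overlapped.

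The gene of perforin, which forms pores in the target cell, did not pass. Prf1, named after its values were seen, read 13.08, 13.07 and 13.07 in DP against 13.04 and 13.09 in DN, a difference of 0.01 (SE 0.09, adjusted p = 0.96), with overlapping groups. Among 14 genes of granule proteins and death ligands, 6 were higher and 0 lower, against 4.47% and 3.02% of all genes. Their median difference was 0.36. The death ligands Tnfsf10, which encodes TRAIL, and Fasl differed by 1.11 and 0.88 (limma, adjusted p = 0.0111 and 0.00687). The lysosomal genes Ctsd and Lamp1 differed by 0.97 and 0.47 (adjusted p = 0.00467 and 0.0498), and Lamp1 lost its call without either DN library or DP replicates 1 or 2 (adjusted p up to 0.132). Without DN replicate 1 or 2 the list had 3 called members in each case, as it had under quantile normalization.

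Some inhibitory receptors were higher in DP. Of 16 measured, 6 were higher, 1 was lower and 9 did not pass, against 4.47% higher and 3.02% lower of all genes, with a median difference of 0.54. Pdcd1 encodes PD-1, the receptor that gave checkpoint blockade its best-known target. It read 15.20, 15.22 and 15.30 in DP against 14.46 and 14.46 in DN, a difference of 0.78 (SE 0.08, limma, adjusted p = 0.0137). The DP libraries all lay above DN, by less than 1 unit. Ctla4, a competitor of CD28 for its ligands, read 16.23, 16.29 and 16.48 in DP and 15.43 and 15.32 in DN (difference 0.96, adjusted p = 0.024). Cd200r1, an inhibitory receptor for CD200, and Pdcd1lg2, a ligand of PD-1, differed by 1.54 and 1.498. Btla, an inhibitory receptor of less differentiated lymphocytes, was lower by -1.60. Havcr2, Lag3 and Tigit, which mark exhausted cells and were named after their values were seen, differed by 0.79, 0.38 and -0.11 and did not pass (adjusted p = 0.0616, 0.31 and 0.664). Havcr2 passed without any of the 3 SP replicates. Ctla4, Cd200r1, Pdcd1lg2 and Btla lost their calls without either DN library (adjusted p up to 0.0928), and without DN replicate 1 or 2 the list had 1 higher and 0 lower members in each case. Under quantile normalization 4 were higher and 1 lower.

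The exhaustion transcription factors did not follow the receptors. The list had 1 higher and 2 lower members of 12, against 4.47% and 3.02% of all genes, with a median difference of -0.12. Tox, the factor that maintains the exhausted state, lies on chromosome 4 from 6686353 to 6991557 (minus strand) and read 12.73, 12.76 and 12.92 in DP against 14.21 and 14.21 in DN. All DP values lay more than a unit below DN, with a difference of -1.41 (SE 0.12, limma, adjusted p = 0.00877). Its relative Tox2 was lower by -2.39 at low values, near 2.2 in DP, and lost its call without either DN library (adjusted p up to 0.0794). Irf4, which links receptor signal strength to effector programs, was higher by 1.24 (adjusted p = 0.0112). The SP libraries, which also carry CD69, read 14.58, 14.60 and 14.31 for Tox, so low Tox was measured in DP and in neither other subset. DP against SP passed the test for Tox (difference -1.69, adjusted p = 0.0432).

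**Figure D2:**
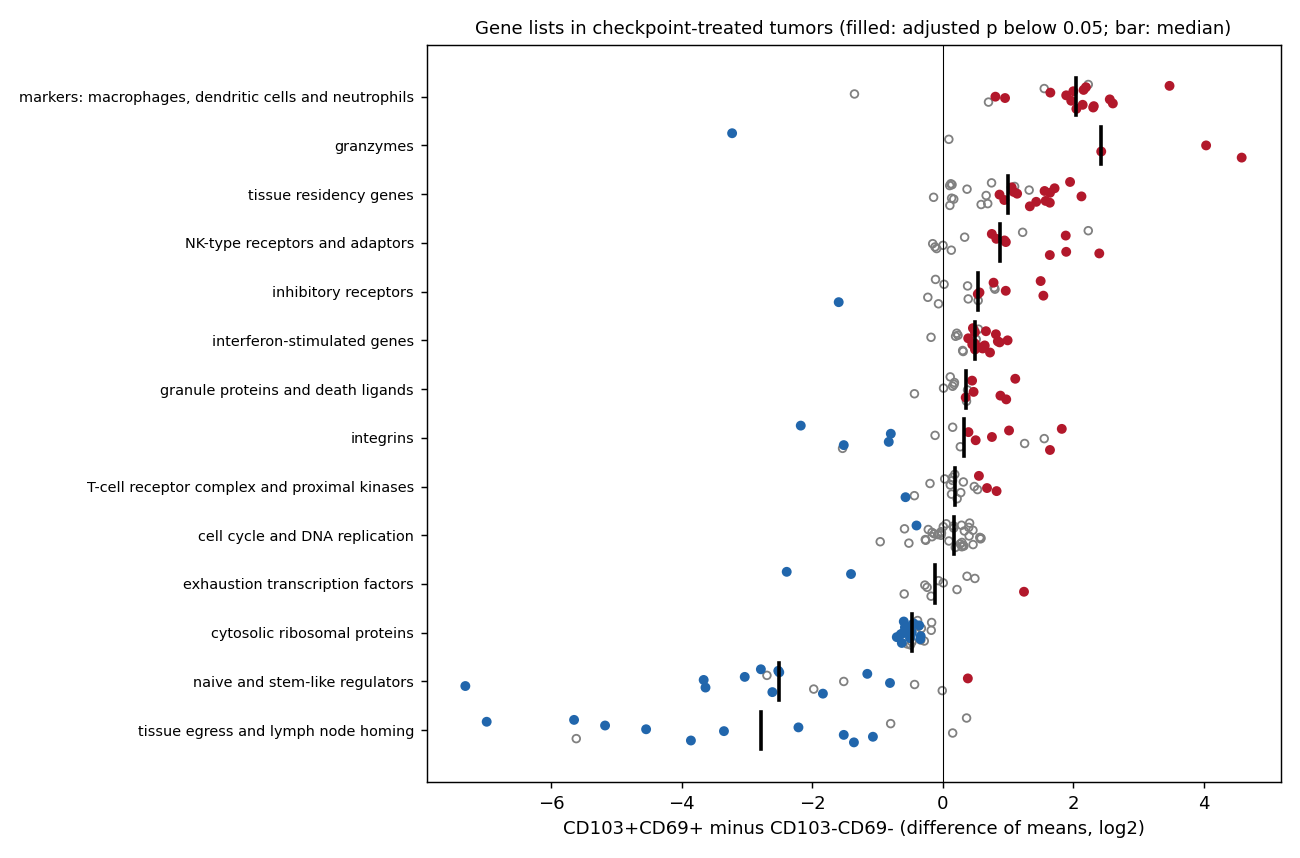
Difference of means between CD103+CD69+ and CD103-CD69- libraries (horizontal axis, log2) for each measured member of 14 gene lists (1 strip each), with filled points for members past the adjusted p threshold and a bar at the list median. The egress and naive lists lie mostly to the left, with medians of -2.78 and -2.51, and the macrophage markers, granzymes and residency genes mostly to the right, with medians of 2.05, 2.43 and 0.998.

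Secreted factors were higher where they passed. Of 14 cytokine and chemokine genes, 4 were higher and 0 lower, against 4.47% and 3.02% of all genes, with a median difference of 0.64. Csf1, the growth factor of macrophages, read 16.49, 16.50 and 16.61 in DP against 13.85 and 13.87 in DN, a difference of 2.67 (6.38-fold, SE 0.12, limma, adjusted p = 0.00306). Every DP library exceeded the DN libraries by more than 2 units. The chemokine Ccl1 differed by 2.84 at low values, the inflammatory cytokine Tnf by 1.20 and Ltb, a lymphotoxin subunit, by 0.58 (adjusted p = 0.0473, 0.0202 and 0.0164). Tnf lost its call without DN replicate 2, and Ccl1 without either DN library or DP replicate 2 (adjusted p up to 0.117). Ifng and Ccl5, the main effector cytokine and chemokine of CD8 T cells, were named after their values were seen and differed by 0.34 and 0.08 without passing (adjusted p = 0.143 and 0.611). Ifng passed without SP replicate 2. Ccl5 stood at 17.21 to 17.28 in DP and 17.15 and 17.17 in DN.

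Chemokine receptors and integrins changed in both directions. Of 15 chemokine receptors 4 were higher and 1, Ccr7, was lower, against 4.47% and 3.02% of all genes. Their median difference was 0.14. Ccr1 and Ccr2, receptors for inflammatory chemokines, differed by 3.19 and 1.40 (limma, adjusted p = 0.00467 and 0.00662). Ccr2 read 16.42, 16.37 and 16.24 in DP against 14.90 and 14.98 in DN, with no overlap. Cxcr6, the receptor that places T cells near CXCL16, differed by 0.94 (adjusted p = 0.0165). Cxcr3, the receptor for interferon-induced chemokines, was named after its values were seen and differed by 0.02, with overlapping groups. Among 16 integrin genes 6 were higher and 4 lower, against the same shares of all genes, with a median difference of 0.33. Besides Itga1, the higher ones included Itgb5 (1.82), Itgb3 (1.01) and Itgav (0.75), which form receptors for matrix proteins and for latent TGF-beta. Itga4, a homing integrin subunit for vessels and gut, read 16.11, 16.14 and 16.20 in DP and 17.69 and 17.64 in DN (difference -1.52, adjusted p = 0.00382). Its partner Itgb1 (-0.80), the laminin receptor subunit Itga6 (-0.83) and Itgb8 (-2.18) were lower too. Itgb7, which encodes the partner chain of CD103, was named after its values were seen and ran from 12.29 to 12.65 in DP and read 12.39 and 12.20 in DN, so its groups overlapped (difference 0.15, adjusted p = 0.717). Without DN replicate 1 or 2, 1 higher and 2 lower integrins were called in each case, and Itgb3, Itgb5, Itgav, Itga6 and Itgb8 lost theirs (adjusted p up to 0.118). Itgb8 also lost its call without DP replicate 2, and Itgb5 without DP replicates 1 or 2.

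Receptors shared with natural killer cells were higher in DP where they passed. Of 16 measured 8 were higher, 0 lower and 8 did not pass, against 4.47% higher and 3.02% lower of all genes, with a median difference of 0.88. Cd244, a receptor for CD48, read 10.39, 10.37 and 10.32 in DP and 8.71 and 8.74 in DN (difference 1.64, SE 0.09, limma, adjusted p = 0.00382). The adaptor Fcer1g and the Fc receptor Fcgr3 differed by 2.40 and 1.89, and the receptor Klri2 by 1.88. Fcer1g lost its call without DN replicate 1, Fcgr3 without either DN library, and Klri2 also without DP replicate 2 (adjusted p up to 0.111). The NKG2 genes Klrc1, Klrd1 and Klrk1, named after their values were seen, differed by 0.96, 0.82 and 0.75 (adjusted p = 0.00585, 0.0448 and 0.0144), and Klrd1 lost its call without either DN library or DP replicates 1 or 2 (adjusted p up to 0.127). Without DN replicate 1 the list had 4 called members and without DN replicate 2 it had 5. Klrb1c, which encodes the NK lineage marker NK1.1, differed by -0.16 (adjusted p = 0.861). Tyrobp, the adaptor DAP12, differed by 2.23 (adjusted p = 0.0523) and passed without DP replicate 3 or any SP replicate. Macrophages also express Fcer1g, Fcgr3 and Tyrobp, and macrophage markers were higher in the same DP libraries, with a mean level of 6.56 to 6.72 in DP and 4.86 in both DN libraries. The part of those markers in the adaptor values was not tested.

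Genes of TGF-beta signalling, the pathway that induces CD103, changed in both directions. The list had 5 higher and 2 lower of 17 members, against 4.47% and 3.02% of all genes, and a median difference of 0.14. Tgfbr3, the accessory receptor betaglycan, read 12.18, 12.18 and 12.19 in DP against 10.72 and 10.71 in DN, a difference of 1.47 (SE 0.07, limma, adjusted p = 0.00306). The signalling receptors Tgfbr1 and Tgfbr2, named after their values were seen, differed by 0.46 and 0.14 and did not pass (adjusted p = 0.0973 and 0.244). Tgfbr1 passed without any of the 3 SP replicates. Cdh1, which encodes the CD103 ligand E-cadherin and is known to be induced in resident T cells, was higher by 1.43, and Ldlrad4, an inhibitor of SMAD activation, by 1.08 (adjusted p = 0.00803 and 0.00435). The signal transducer Smad3 was lower by -0.65 and lost its call without either DN library or DP replicate 2 (adjusted p up to 0.104). Within the T-cell receptor list, 3 of 17 members were higher and 1 lower (median 0.18): Cd3g (0.82), Cd6 (0.68) and Thy1 (0.55) were higher and the signalling chain Cd247 was lower (-0.57). Cd6 and Cd247 lost their calls without either DN library, and Cd6 also without DP replicate 2 (adjusted p up to 0.102).

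Costimulatory and cytokine receptors changed in both directions, and 7.49% of all genes were called. Of 14 costimulatory receptors, Cd226 (1.22), an activating receptor that shares ligands with TIGIT, and Tnfrsf1b (0.48), a TNF receptor, were higher and Cd27 (-1.14) was lower, with a median of 0.04. Tnfrsf1b and Cd27 lost their calls without either DN library, and Cd27 also without DP replicate 2 (adjusted p up to 0.114). Of 21 cytokine receptor genes 3 were higher and 2 lower (median 0.26). Il2ra, the high-affinity chain of the interleukin 2 receptor, read 11.41, 11.38 and 11.38 in DP against 9.11 and 9.23 in DN, a difference of 2.22 (SE 0.19, limma, adjusted p = 0.00987). Il12rb1, an interleukin 12 receptor chain, was higher by 1.13, and Il6st, the signalling partner of Il6ra, was lower by -2.12. Il12rb1 lost its call without DN replicate 1 (adjusted p = 0.0503).

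Interferon-stimulated genes were higher in DP where they passed. Of 25 measured, 16 were higher and 0 lower, against 4.47% and 3.02% of all genes, and 24 differences were positive. The differences were small, with a median of 0.49. Isg15, a ubiquitin-like antiviral protein, lies on chromosome 4 from 156199424 to 156200818 (minus strand) and read 10.91, 10.94 and 11.01 in DP against 10.11 and 10.06 in DN (difference 0.87, SE 0.09, limma, adjusted p = 0.0137). The groups were apart by less than 1 unit, which was several times the spread within them in the deposited values. Oas1a, a sensor of viral RNA, Mx1, a GTPase that blocks viruses, and Rsad2, which encodes viperin, differed by 0.99, 0.84 and 0.81 (adjusted p = 0.0131, 0.0211 and 0.0137). Without DN replicate 1 the list had 4 called members and without DN replicate 2 it had 6, and Mx1 lost its call without either. The interferon-induced membrane genes Ifitm2 and Ifitm3, outside the list and named after their values were seen, differed by 2.09 and 2.16 (adjusted p = 0.0038 and 0.00435). Type I interferon also acts on macrophages, whose markers were higher in these DP libraries, and their part in the interferon values was not tested.

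The upstream sequences of 3 of these genes are shown because they carry the element that interferon-activated factors bind. The 250 bases before the RefSeq gene start (GRCm38.p6, minus strand in each case) were searched on both strands for the letters TTTCNNTTTC, the core of the interferon-stimulated response element, and matches are in capitals, reading as GAAANNGAAA where they lie on the other strand. Isg15 held 3 overlapping matches, starting 78, 72 and 66 bases before the gene start, at chr4:156200819-156201068. Rsad2 held 1 match 120 bases before the start, at chr12:26456453-26456702, and Oas1a held 2 overlapping matches 20 and 14 bases before it, at chr5:120907526-120907775.
Isg15: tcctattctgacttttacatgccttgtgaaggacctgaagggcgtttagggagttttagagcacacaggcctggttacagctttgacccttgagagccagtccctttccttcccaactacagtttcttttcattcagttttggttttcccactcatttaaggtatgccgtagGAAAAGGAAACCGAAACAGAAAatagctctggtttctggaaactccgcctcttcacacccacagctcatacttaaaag
Rsad2: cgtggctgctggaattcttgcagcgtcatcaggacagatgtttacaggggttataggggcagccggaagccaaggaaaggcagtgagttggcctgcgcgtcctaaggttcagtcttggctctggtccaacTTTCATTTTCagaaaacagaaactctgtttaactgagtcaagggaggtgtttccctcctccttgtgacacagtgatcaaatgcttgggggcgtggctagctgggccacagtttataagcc
Oas1a: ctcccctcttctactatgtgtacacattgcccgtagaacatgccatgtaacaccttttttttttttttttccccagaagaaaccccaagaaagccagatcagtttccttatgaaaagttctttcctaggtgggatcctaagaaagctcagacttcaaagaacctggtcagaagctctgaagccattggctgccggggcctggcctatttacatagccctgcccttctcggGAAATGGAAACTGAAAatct
The same letters stood in 8 of the 11 called interferon genes with a RefSeq window (72.7%) and in 1 of the 5 that did not pass. They stood in 305 of 9074 genes of the table with a window (3.36%), in 7 of 242 genes lower in DP (2.89%) and in 40 of 415 genes higher in DP (9.64%). Without the interferon list, 32 of 404 higher genes held them (7.92%). A match describes letters only, and nothing here measured binding.

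Ribosomal protein genes were lower in DP where they passed. All 26 cytosolic members had negative differences, 15 were lower and 0 higher, against 3.02% and 4.47% of all genes, and the median was -0.47. Rpl5, a large-subunit protein, read 10.53, 10.53 and 10.55 in DP against 11.25 and 11.24 in DN (difference -0.71, SE 0.07, limma, adjusted p = 0.0135), and Rplp0, Rpl13 and Rplp1 differed by -0.64, -0.63 and -0.61. Without DN replicate 1 or 2 the list had 2 called members in each case. No gene of oxidative phosphorylation passed (0 of 24, median 0.04), and the members Uqcrfs1 and Sdhb differed by -0.51 and 0.50 (adjusted p = 0.0941 and 0.0946), while Sdhb passed without any of the SP replicates and Uqcrfs1 without SP replicates 1 or 2 or DP replicate 3. Of 23 glycolysis and hypoxia genes, Hk2, the inducible hexokinase, was higher by 1.01 (adjusted p = 0.0109), and the median was 0.26. Of 19 fatty acid genes Acadl, an acyl-CoA dehydrogenase, was higher by 0.68, and of 19 cholesterol genes, with 2 higher and 0 lower, Stard4, which moves cholesterol inside the cell, was higher by 0.67 and lost its call without either DN library (adjusted p up to 0.0666).

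Proliferation, stress and presentation genes are given beside the 4.47% of all genes that were higher and the 3.02% that were lower. Of 35 cell-cycle genes 0 were higher and 1, the tubulin gene Tubb5, was lower (-0.41), with a median of 0.16, and Mki67, the proliferation marker, differed by 0.33 (adjusted p = 0.191; named after its values were seen). Of 23 immediate-early genes Atf3 was higher (1.90) and Myc (-1.03) and Ier2 (-0.56) were lower. None of 14 heat shock genes passed (Dnaja1 0.72 and Hspb1 -0.63, adjusted p = 0.14 and 0.545), though Dnaja1 passed without SP replicate 2. Of 16 endoplasmic reticulum stress genes 4 chaperone genes, Creld2, Pdia6, Calr and Pdia3, were higher by 0.70, 0.68, 0.61 and 0.58. The pro-death gene Bcl2l11, which encodes BIM, read 7.10, 7.07 and 7.005 in DP against 7.998 and 8.08 in DN and was the only called member of 17 survival genes (difference -0.98, limma, adjusted p = 0.0386). Of 15 genes of MHC class I presentation 3 were higher, Tapbp (0.45), H2-D1 (0.44) and B2m (0.33), but quantile normalization left 1 called and turned B2m to -0.09. Of 8 Gimap genes, which act in lymphocyte survival, Gimap6 was lower (-0.45). Of 18 genes for S100 proteins, annexins and galectins, Anxa4 (1.07), S100a4 (0.92), Lgals3 (0.85) and S100a6 (0.60) were higher. Among these stress and presentation genes only Pdia6, S100a4, Lgals3 and S100a6 remained called without each DN library in turn, and the other called genes reached adjusted p-values of up to 0.125. Tubb5, Calr, Bcl2l11 and Gimap6 also lost their calls without DP replicate 2, and Myc and B2m without DP replicates 1 or 2.

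Markers of other cell types were not equal between the subsets. Of 19 measured markers of macrophages, dendritic cells and neutrophils, 15 were higher and 0 lower in DP, against 4.47% and 3.02% of all genes, with a median difference of 2.05. Their mean level was 6.56 to 6.72 in DP, 5.38 to 5.64 in SP and 4.86 in both DN libraries. Csf1r, the macrophage receptor for the Csf1 product, read 7.73, 7.73 and 7.65 in DP against 5.18 and 5.10 in DN (difference 2.56, SE 0.24, limma, adjusted p = 0.0109). Lyz2, a lysozyme gene of myeloid cells, ran from 8.48 to 8.99 in DP and read 6.53 and 6.64 in DN (2.19, adjusted p = 0.0163; named after its values were seen). Mrc1, a mannose receptor, Cd14, a co-receptor for lipopolysaccharide, and the complement gene C1qb differed by 3.47, 2.60 and 2.31 at lower levels. Those 3 lost their calls without either DN library (adjusted p up to 0.103), Cd14 also without DP replicate 2. The list had 5 called members without DN replicate 1 and 4 without DN replicate 2. The part of myeloid transcripts in the other differences, those of S1pr1 and Tcf7 included, was not tested.

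Other marker lists were mixed. CD4 and regulatory T-cell markers had 5 higher of 10, against 4.47% of all genes. Their mean level was 9.53 to 9.64 in DP and 8.93 in both DN libraries. Foxp3, the regulatory T-cell factor, read 6.55, 6.43 and 6.20 in DP against 2.90 and 3.19 in DN (difference 3.34, limma, adjusted p = 0.0197), and Il2ra, Ikzf4 (1.66) and Ctla4 were also on this list. Cd4 itself did not pass (-1.44, adjusted p = 0.156), and Foxp3 lost its call without DN replicate 1 (adjusted p = 0.0565). Of 11 tumor epithelium markers only Cdh1 passed, while the keratins Krt8 and Krt18 differed by 0.93 and 0.99 (adjusted p = 0.247 and 0.17; named after their values were seen), and the mean level was 3.61 to 3.73 in DP and 2.44 to 2.56 in DN. Of 8 stromal and endothelial markers Cdh5, the endothelial cadherin, and Sparc, a matrix glycoprotein, were higher by 3.27 and 2.05 (adjusted p = 0.00382 and 0.0178), and the mean level was 5.54 to 5.70 in DP and 4.09 to 4.27 in DN. Of 7 NK, NKT and gamma-delta T-cell markers the gamma chain gene Tcrg-C2 was higher by 1.33 (adjusted p = 0.0168), and the mean level was 3.12 to 4.04 in DP and 2.36 to 2.67 in DN. The part of these cell types in the other differences was not tested. None of 10 B-cell markers (Pax5 -2.09 and Ighm -2.03) and none of 4 red-cell and platelet markers (Itga2b -0.94 and Hba-a2 0.40) passed, though Ighm did without DP replicates 1 or 3 or any SP replicate.

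**Figure D3:**
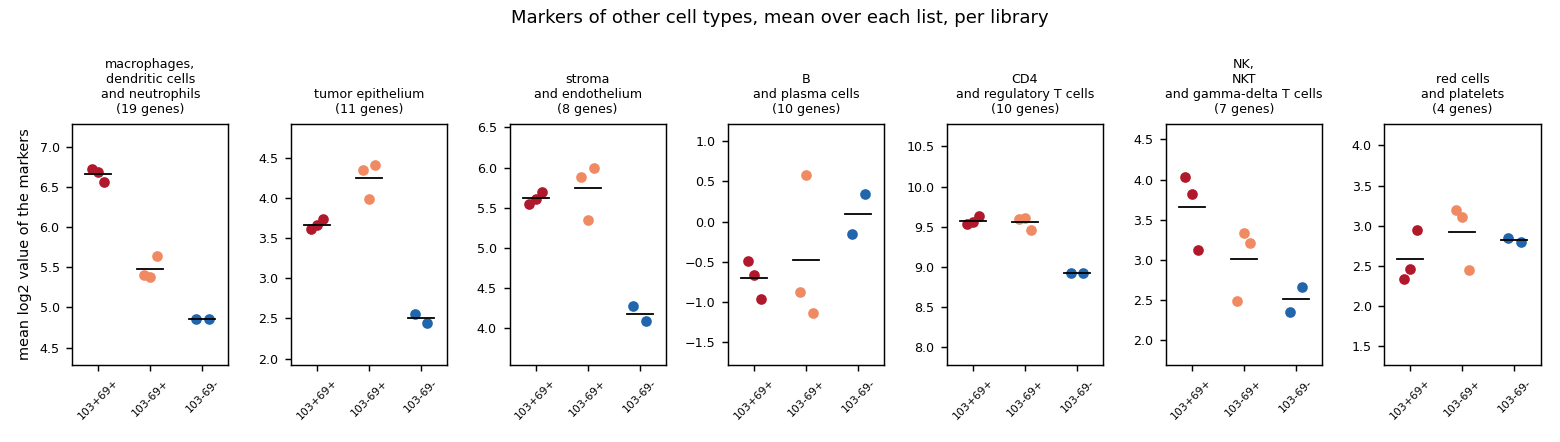
Mean log2 value of the measured markers of 7 other cell types (vertical axes, a range of their own for each list) in each treated library by sorted subset, with bars at the group means. The macrophage, dendritic and neutrophil markers average 6.56 to 6.72 in CD103+CD69+ libraries and 4.86 in both CD103-CD69- libraries.

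SP cells were sorted as carrying CD69 without CD103. SP against DN gave 515 calls (3.83%), of which 332 were higher in SP (2.47%) and 183 lower (1.36%). DP against SP gave 5 calls (0.0372%), of which 1 was higher in DP (0.00743%) and 4 lower (0.0297%). These contrasts share libraries with DP against DN, so their values are given side by side only. S1pr1 differed from DN by -4.53 in SP and -5.18 in DP, Lef1 by -1.97 and -3.04, and Tcf7 by -2.50 and -2.79. Gzma differed by 2.58 in SP and 4.58 in DP, and Itgae by 2.11 and 4.46. Of 28 residency genes 14 were higher than DN in SP and 14 in DP (medians 0.87 and 0.998). Of 14 egress genes 10 were lower in each. Of 16 inhibitory receptors 7 were higher in SP and 6 in DP (medians 0.87 and 0.54). These 3 list results were thus not particular to DP. The interferon list had 3 higher in SP and 16 in DP, and the macrophage list 0 and 15. Of the 1008 genes called between DP and DN, the SP mean lay nearer to DP at 820 and nearer to DN at 188. The share over all genes was not counted, and SP shared in the spread behind those calls. These 2 counts therefore do not measure how alike SP and DP are. The 5 genes called between DP and SP, named after their values were seen, were Ifitm1, an interferon-induced membrane gene (0.95 higher in DP), and Atp2b2 (-5.38), Trav10d (-3.62), Tmprss6 (-3.06) and Tox (-1.69). Atp2b2, a calcium pump gene, read 3.03, 3.09 and 3.34 in DP, 8.67, 8.69 and 8.24 in SP and 7.38 and 7.37 in DN, and Trav10d, a T-cell receptor variable segment, read 7.21, 7.31 and 7.55 in DP against values from 10.62 to 11.22 in the other 5 libraries.

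The same subsets in untreated tumors came from other libraries, 10 of DP and 8 of DN at weeks 2, 4 and 6, in a table normalized separately. Those DP libraries had library codes from 5 to 38, besides 52 and 54, and the DN libraries had codes from 46 to 75. Subset and run of codes thus largely coincide and can hardly be told apart. Within codes 46 to 61 the only DP libraries were code 52 at week 2 and code 54 at week 6. DP thus had no replicate within a week there, and no count of calls is given. Over weeks 2, 4 and 6 and all codes, 2460 of 10560 genes were called (23.3%), 1035 higher (9.8%) and 1425 lower (13.5%) in DP, or 1357 and 1184 after quantile normalization. Itgae differed by 3.39 (SE 0.33, limma, adjusted p = 1.4e-06) and S1pr1 by -2.86, against 4.46 and -5.18 with treatment. The S1pr1 differences at weeks 2, 4 and 6 were -2.67, -2.88 and -3.03. Gzma differed by 2.11, with 0.84, 2.95 and 2.53 at the 3 weeks, and Gzmb by 2.53, against 4.58 and 2.43 with treatment. Single untreated libraries of DP and DN overlapped for Gzma. Without treatment 13 of 14 egress genes were lower and 0 higher, and 18 of 28 residency genes were higher and 0 lower. The lower egress genes without treatment include Itgb7, which differed by -0.95 there and 0.15 with treatment. No test compared the differences between the tables, whose scales were set apart.

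Of 818 genes called under treatment and present in both tables, 619 had the same sign in untreated tumors (75.7%), against 5775 of all 10187 shared genes (56.7%). In all 374 passed in both tables, 323 of them with the same sign, which is 45.7% of the treated calls and 15.6% of the 2399 untreated ones. Across shared genes, which are not independent replicates, Pearson's r was 0.306 and Spearman's rho 0.223. The interferon list differed in its counts: 16 of 25 members were higher under treatment, while 1 of 23 was higher and 5 lower without it (median -0.06), and Isg15 differed by 0.87 with treatment and 0.00 without. Markers of macrophages, dendritic cells and neutrophils differed too, with 15 of 19 higher under treatment and 3 of 15 without it (medians 2.05 and 0.46). Their part in the interferon counts was not tested. The immediate-early genes had 1 of 23 higher under treatment and 12 of 22 without it. Their untreated median was 0.60, but 0.19, 1.19 and 0.17 at weeks 2, 4 and 6, so it was high at week 4 only. Of all genes, 4.47% were higher under treatment, and 9.8% were higher and 13.5% lower without it. Tox differed by -1.41 with treatment and -0.05 without (adjusted p = 0.83).

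**Figure D4:**
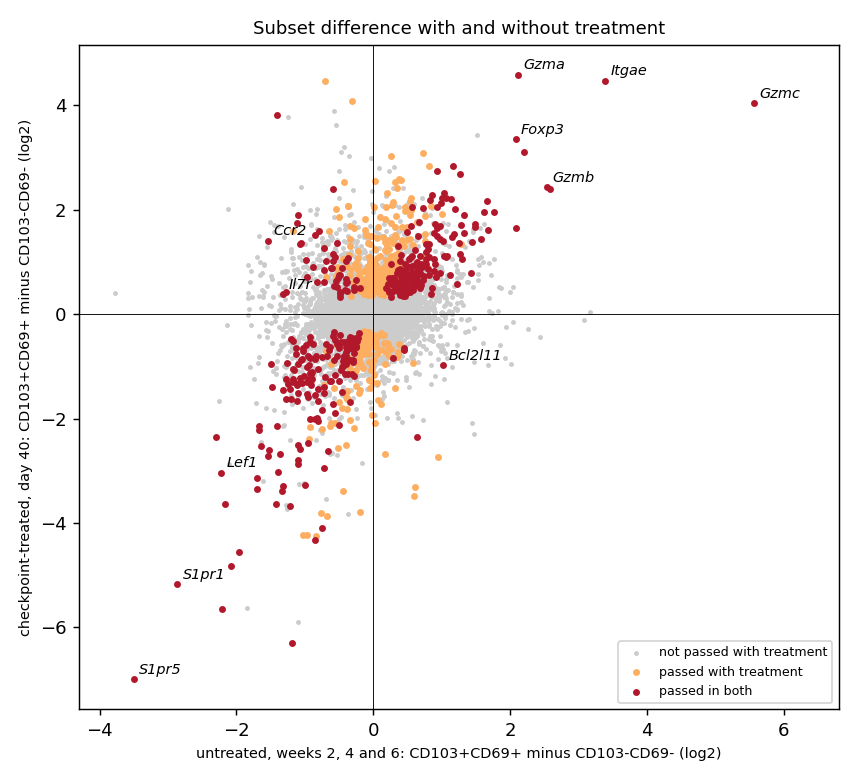
Difference of means between CD103+CD69+ and CD103-CD69- cells (log2) for each of 10187 shared genes, in untreated tumors at weeks 2, 4 and 6 (horizontal axis) and in checkpoint-treated tumors on day 40 (vertical axis), coloured by whether the gene passed with treatment and in both. Itgae, Gzma and Gzmb lie high in both, S1pr1, S1pr5 and Lef1 low in both, and Ccr2, Il7r and Bcl2l11 on opposite sides of zero.

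The called genes with the greatest differences lay mostly at the bottom of the scale. Besides Gzma and Itgae, the 12 with the highest positive differences were Col5a2 (6.15), Gm10801 (5.06), Garem (4.82), Ptgs2 (4.70), AC131780.1 (4.61), Eln (4.60), Nrtn (4.50), Gm10800 (4.45), Timp3 (4.44) and Cdk18 (4.30). Col5a2 and Eln encode matrix proteins and Timp3 a metalloproteinase inhibitor, and Ptgs2 encodes COX-2, the inducible enzyme of prostaglandin synthesis. Col5a2 read -8.13 to -7.86 in DP and -14.123 and -14.115 in DN, where the number of reads behind a value is unknown. Gm10800 and Gm10801 are closely alike gene models whose reads the counting could have shared, so both are uncertain. Besides Dapl1 and S1pr5, the most negative included RP24-448C16.2 (-7.03), Nccrp1 (-6.83), Tnfrsf25 (-6.78), Gm9889 (-6.51), Slc16a5 (-6.30), Trnp1 (-6.15), Lgi2 (-6.08), Cpne7 (-5.54) and AC161229.1 (-5.49). Tnfrsf25 encodes the death receptor DR3 and read -4.41, -4.22 and -3.71 in DP against 2.85 and 2.49 in DN (limma, adjusted p = 0.0112). Cpne7, a copine gene, was the one among them at a high level, from 9.34 to 11.05 in DP against 15.87 and 15.31 in DN, with adjusted p = 0.0476. Of the genes named for their size, Gzma, Itgae, RP24-448C16.2, Tnfrsf25, Gm9889 and Lgi2 remained called whichever library was left out, and the other 17 lost their calls without at least 1 DN library (adjusted p up to 0.128).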

How the data were processed

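The authors deposited normalized values, read here as log2 values, in 2 tables, 1 of the 8 checkpoint-treated libraries and 1 of the 43 untreated ones. How they normalized is not stated in the sources used here, and the log2 base is inferred from the values, which run from -23.81 to 21.04 in the treated table, with a median of 8.37. Per the submitters' processing notes, the tools were HISAT2 and HTSeq and the build mm10, with no version given. After centring each gene, the treated table had rank 4 of a possible 7, and its residuals from the group means had rank 2 of a possible 5. limma 3.58.1 in R 4.3.3 (statmod 1.5.0) therefore fitted group means with residual degrees of freedom multiplied by 0.4, and residual variances divided by it, with trend and robust options (0.6429 in the untreated table, with weeks weighted equally). The code was run on simulated data in which a gene had the same spread in every group. The treated groups differ in median spread, so that run cannot vouch for the calls made here. Adjusted p-values are Benjamini-Hochberg over all genes of a table, with a threshold of 0.05. Folds are 2 to the power of the difference.

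The libraries, 38 gene lists and comparisons were chosen with earlier results of these data known. Named genes are Itgae, Cd69, S1pr1 and Gzma, up to 4 called members of a list in each direction by size (up to 2 where none passed), and the 12 highest and 12 lowest called genes whose groups do not overlap, besides those marked as named after their values were seen. Listed genes without a row were left out. Gene positions are from GENCODE for GRCm38 and upstream sequences from RefSeq. S1pr1 and Itgae had no upstream window. A few genes that the rule names are not reported here. The alternatives were other degrees of freedom, a filter on low values, other scalings and variance models, the compared libraries alone, blocks, and leaving out each library.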

Additional observations from a re-analysis of the deposited data

Results flagged for a closer look

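Genes that passed in both tables with opposite directions, and whose DP and DN libraries did not overlap in either, were looked at again among those named. Il7r was 0.38 higher in DP under treatment (16.75 to 16.77 against 16.36 and 16.39) and differed by -1.32 in untreated tumors (limma, adjusted p = 0.0477 and 3e-05), with -1.10, -0.98 and -1.87 at weeks 2, 4 and 6. Ccr2 was 1.40 higher under treatment and differed by -1.54 without it (adjusted p = 0.00662 and 0.000185), with -1.48, -1.60 and -1.53 at the 3 weeks. Bcl2l11 differed by -0.98 under treatment and 1.02 without it (adjusted p = 0.0386 and 6.3e-07), with 0.64, 0.96 and 1.46 at the 3 weeks. The difference between the tables was not tested, since they were normalized separately and day 40 is not among the untreated times.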

How the results depend on the processing

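Gene counts are total, higher and lower in DP. For treated tumors, 1008, 601 and 407 became 6101, 3201 and 2900 when degrees of freedom were counted from the design, and 4758, 2519 and 2239 with only the DP and DN libraries. They became 14, 5 and 9 without trend or robust estimation (3242 genes at an unadjusted p below 0.05). With robust estimation and no trend, chosen after seeing the data, they were 0, 0 and 0, and trend without robust estimation gave 927. Leaving out 1 library gave 287 to 2648, 187 to 1481 and 100 to 1167, and DP replicate 2 took the lower count to 270. The low-value filter, quantile normalization, the median shift and a block of consecutive library codes gave 997 to 1118 in total, and the scalings moved the median of all genes to -0.0107 and 0.019. For untreated tumors, 2460, 1035 and 1425 became 3947, 1732 and 2215 with degrees of freedom counted from the design, 4283, 1882 and 2401 with the compared libraries only, 86, 28 and 58 at week 2 alone, 338, 116 and 222 at week 6 alone, and 873, 283 and 590 with codes 46 to 61. Leaving out 1 library gave 2018 to 2640, 859 to 1117 and 1159 to 1530. The factor applied to degrees of freedom and variances was set anew in each setting. For treated tumors the residual rank was 2 of 5 in the main fit and 2 of 4 without 1 library. It was 2 of 3 with the compared libraries only or with a block. Variances were therefore enlarged less in those settings, and their counts are not from equally strict tests. Some settings also hold fewer samples. How much of each change comes from these was not tested.

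Of 179 named genes, 174 kept their sign in all 18 settings. Quantile normalization reversed B2m (-0.0872), Cd8b1 (-0.0741), Gzmk (-0.00453), Prf1 (-0.141) and Cxcr3 (-0.101). Leaving out 1 library gave -0.0245 to 0.235 for Gzmk, negative without DN replicate 1 or DP replicate 1, and -0.0159 to 0.0366 for Prf1, negative without DN replicate 1. Of these, B2m was called.

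Whether replicate numbers pair the treated libraries could not be decided. The residual correlations of same-numbered libraries ran from -0.995 to 0.92. The residuals have rank 2 and those of the 2 DN libraries mirror each other, so large correlations of either sign arise without pairing. With the replicate block the treated counts were 1868, 1064 and 804, Cxcr3 was -0.000703, and the untreated counts were 3381, 1441 and 1940. Depth is unknown, so what it limits could not be measured.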
